A study of Mus musculus with 4 samples.

Results

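The genes described here encode the subunits of the constitutive proteasome, taken as every gene whose symbol is Psma, Psmb, Psmc or Psmd followed by a number, with the immunoproteasome genes Psmb8 and Psmb9 left out. This rule gave 37 of the 32285 genes in the matrices, of which 17 belong to the core particle (Psma and Psmb) and 20 to the regulatory particle (Psmc and Psmd). It uses symbols alone, so it also takes in Psmb10, Psmb11 and Psma8, which belong to proteasome variants, and Psmd5, Psmd9 and Psmd10, which are assembly chaperones. RNA and surface antibody tags were counted in the same single cells (CITE-seq) of E17.5 mouse fetal liver sorted as LSK cells, the lineage-negative, Sca1-positive, c-Kit-positive fraction that holds blood stem cells and early progenitors. The control library, called WT, came from Bclaf1 f/f embryos, and the other, called KO, from Vav-Cre:Bclaf1 f/f embryos, in which Cre is driven by a promoter active throughout the blood system. Both groups carry the floxed alleles, and each is 1 library from 10 pooled embryos. There was thus no replicate, no test was made, and every interval below covers counting error only.

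The proteasome degrades proteins that carry ubiquitin chains. Its core particle is a barrel of alpha and beta rings with the cutting sites inside the beta rings, and its regulatory particle binds the chain, removes it, unfolds the protein with a ring of ATPases and feeds it into the barrel. The subunits are needed in fixed proportions, and in mammals the transcription factor encoded by Nfe2l1 can raise their genes together when proteasome activity is low. Blood stem cells are known for slow protein synthesis and a low tolerance of misfolded protein.

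Promoter windows of 300 bases, from 250 bases before to 50 bases after the transcription start, were found in RefSeq on GRCm38.p6 for 30 of the 37 members. The letters TGACNNNGC, the core of the antioxidant response element that Nfe2l1 and its relatives bind, stood on either strand in 5 of these 30 genes (16.7%), against 14.0% of 27025 genes. The 5 were the core genes Psmb5 and Psmb6 and the regulatory genes Psmc6, Psmd9 and Psmd12. Psmb5 and Psmb6 had lower levels in KO, and Psmc6, Psmd9 and Psmd12 had log2 ratios of KO over WT of 0.15, 0.07 and 0.03. The median over all genes was 0.07, so Psmd9 was near it and Psmd12 below it. Some core genes without a match, such as Psma7 and Psmb10, also had lower levels in KO. Shown are the windows of Psmb5 and Psmb6, a pair of catalytic subunit genes with lower levels in KO, and of Psmd1 and Psmd11, regulatory genes with higher levels in KO and no match. Capitals mark the match, which starts 47 bases before the start site in Psmb5 and 9 bases before it in Psmb6.
Psmb5 (chr14:54617946-54618245, minus strand): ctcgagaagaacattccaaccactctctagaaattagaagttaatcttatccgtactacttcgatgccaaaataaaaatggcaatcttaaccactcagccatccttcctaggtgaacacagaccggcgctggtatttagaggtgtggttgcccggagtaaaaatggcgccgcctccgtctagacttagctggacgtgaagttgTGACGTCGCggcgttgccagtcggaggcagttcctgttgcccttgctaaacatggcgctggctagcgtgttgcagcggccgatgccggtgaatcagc
Psmb6 (chr11:70525107-70525406, plus strand): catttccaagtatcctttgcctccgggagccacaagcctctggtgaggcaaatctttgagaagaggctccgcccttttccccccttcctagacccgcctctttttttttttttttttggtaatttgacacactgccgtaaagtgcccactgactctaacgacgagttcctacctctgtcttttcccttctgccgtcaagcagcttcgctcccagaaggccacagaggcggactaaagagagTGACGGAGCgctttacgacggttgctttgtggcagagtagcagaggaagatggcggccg
Psmd1 (chr1:86064369-86064668, plus strand): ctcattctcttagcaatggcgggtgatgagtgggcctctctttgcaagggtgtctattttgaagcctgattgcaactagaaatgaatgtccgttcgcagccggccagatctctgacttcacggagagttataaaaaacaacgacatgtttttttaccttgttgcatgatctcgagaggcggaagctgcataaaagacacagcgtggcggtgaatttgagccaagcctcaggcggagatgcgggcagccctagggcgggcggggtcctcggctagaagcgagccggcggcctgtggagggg
Psmd11 (chr11:80428365-80428664, plus strand): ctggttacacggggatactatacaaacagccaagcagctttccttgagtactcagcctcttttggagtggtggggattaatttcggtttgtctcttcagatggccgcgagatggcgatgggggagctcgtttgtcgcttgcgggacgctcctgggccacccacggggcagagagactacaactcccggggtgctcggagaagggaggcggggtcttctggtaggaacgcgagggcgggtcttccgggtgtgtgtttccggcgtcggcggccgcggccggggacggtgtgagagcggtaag
The other letters searched, also on both strands, were TGANTCA, found in 2 of 30 members (6.67%) against 8.97% of all genes, CCAAT, in 12 (40%) against 41.1%, and CACGTG, in 3 (10%) against 8.09%. GGAAG, the core letters of sites bound by ETS factors, stood in 27 of 30 members (90%) and in 73.9% of all genes. TGANTCA and TGACNNNGC can overlap by their first letters, and a match describes letters and not binding.

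After filtering, 5345 WT and 2676 KO cells were kept, with medians of 22734 and 34188 gene UMIs (unique molecular identifiers, 1 per captured transcript), and 5 barcodes were found in both libraries. These came to 141419013 WT and 104358292 KO gene UMIs in all. Bclaf1, the targeted gene, stood in WT at 217.8 CPM (counts scaled to 1000000 gene UMIs) and in KO at 75.8 CPM, a log2 ratio of -1.52 (95% interval -1.56 to -1.49). Of 5 markers of LSK cells all were detected in both libraries, with summed levels of 567.4 and 550.6 CPM. The 11 erythroid markers summed to 479.0 CPM in WT and 673.1 CPM in KO, hepatocyte markers to 9.28 and 12.9 CPM, and macrophage markers to 1.96 and 2.61 CPM. Cells gated by the erythroid markers made up 3.27% of WT and 8.41% of KO cells, and in sums over cells more cells of a type and more RNA per cell cannot be told apart.

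All members together held 6053 CPM in WT and 5924 CPM in KO, and the median cell spent 0.566% of its UMIs on them in WT (quartiles 0.478% and 0.653%) and 0.537% in KO (0.454% and 0.627%). The libraries count 3' ends, 1 UMI per transcript, so levels are given in CPM without a length term. Alpha ring genes without Psma8 ranged from 183.5 to 525.8 CPM in WT, and beta ring genes without Psmb10 and Psmb11 from 136.7 to 345.1 CPM. ATPase genes ranged from 68.3 to 134.1 CPM and non-ATPase genes from 37.9 to 207.0 CPM. The order of the members was nearly alike in the libraries: Psma7, Psmb1, Psma4, Psma3 and Psma2 took the first 5 places in both.

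**Figure D1:**
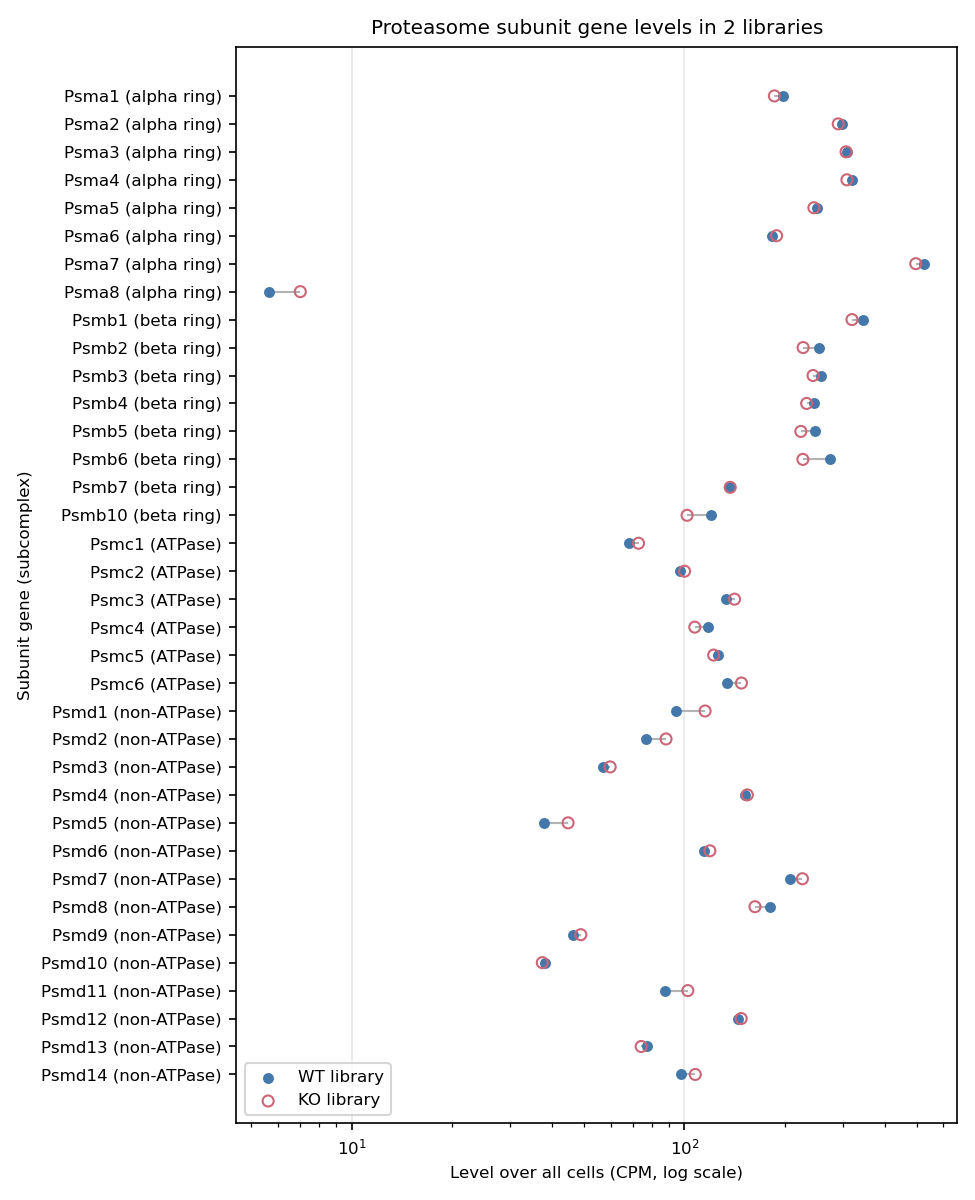
Level of each measured member in the WT and KO libraries, in CPM on a log axis, ordered by subunit family and number and coloured by library. The levels run from 5.66 CPM (Psma8) to 525.8 CPM (Psma7) in WT, and the pair of points of each gene lies close together.

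Between genotypes no member differed by as much as the fold used to call a gene, 25% higher or 20% lower in KO, while 7.47% and 2.57% of the 9229 genes measured at 5 CPM or more did. In smaller differences the core genes lay below the median of all genes, while the regulatory median was level with it. The median log2 ratio of KO over WT was -0.07 (-0.10 to -0.05, the medians of the members' interval bounds) over the 16 core genes measured. It was 0.07 (0.02 to 0.12) over the 20 regulatory genes, beside 0.07 over all genes. Below the all-gene median were 15 of 16 core and 9 of 20 regulatory genes. The interval lay below 0 for 12 of 16 core and 4 of 20 regulatory genes, against 21.8% of all genes. It lay above 0 for 2 core and 14 regulatory genes, against 47.7% of all genes. The regulatory median depended on scaling and make-up: it was 0.004 with median-of-ratios scaling and -0.04 with both libraries given the WT shares of the lineage and cycle gates, where the core median was -0.14 and -0.12. Genes in the level range of the core members (716 genes) had a median of 0.02, and genes in that of the regulatory members (2748 genes) 0.06.

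**Figure D2:**
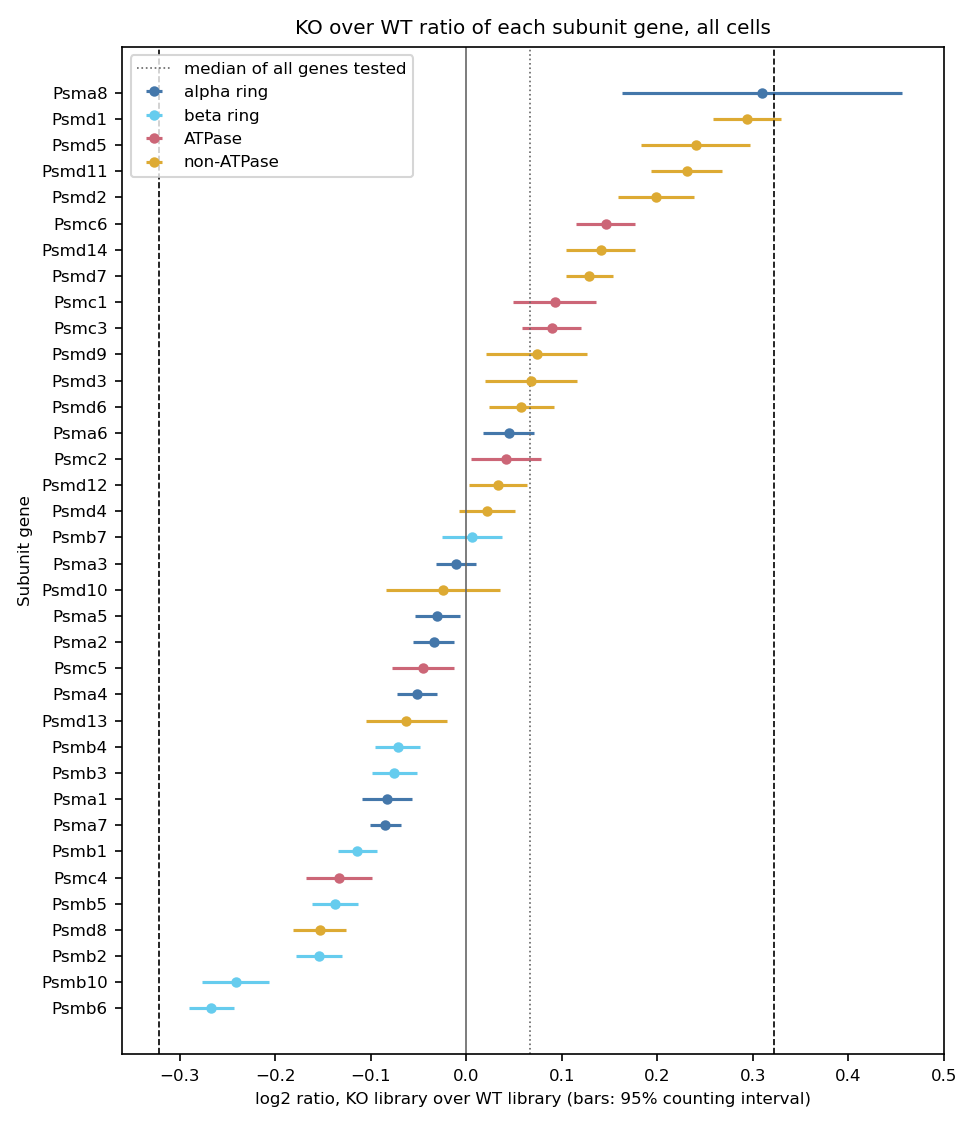
Log2 ratio of KO over WT for each measured member over all cells, with 95% intervals of counting error, coloured by subcomplex; dashed lines mark the calling folds. Core genes crowd at the low end, led by Psmb6 at -0.27 and Psmb10 at -0.24. The highest ratio is that of a core gene, the sparsely counted Psma8 at 0.31, followed by regulatory genes such as Psmd1 at 0.29.

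In the alpha rings, which form the gate of the barrel, 5 of the 7 common genes had intervals below 0 in KO over WT. Psma7 stood at 525.8 CPM in WT and 495.9 CPM in KO (log2 ratio -0.08, -0.10 to -0.07), and Psma1 at 197.5 and 186.4 CPM (-0.08, -0.11 to -0.06). Psma3 was at 308.5 and 306.2 CPM with an interval that held 0 (-0.03 to 0.01). Psma6 was the common alpha gene with a higher value in KO, 183.5 and 189.3 CPM (0.04, 0.02 to 0.07). Psma8, which replaces Psma7 in the proteasome of male germ cells, was at 5.66 and 7.01 CPM (0.31, 0.16 to 0.46), close to the 5 CPM limit.

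The beta rings carry the cutting sites, and their catalytic genes differed from each other in ratio. Psmb6, the caspase-like subunit, was at 273.2 CPM in WT and 227.1 CPM in KO (log2 ratio -0.27, -0.29 to -0.24), the lowest ratio of any member. Psmb5, the chymotrypsin-like subunit, was at 246.2 and 223.9 CPM (-0.14, -0.16 to -0.11). Psmb7, the trypsin-like subunit, was at 136.7 and 137.3 CPM, with an interval of -0.02 to 0.04. Among the structural beta genes Psmb2 was at 253.1 and 227.4 CPM (-0.15, -0.18 to -0.13) and Psmb1, Psmb3 and Psmb4 had ratios of -0.11, -0.08 and -0.07.

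Psmb10, which takes the place of Psmb7 when the immunoproteasome is built, was at 120.4 CPM in WT and 101.9 CPM in KO (log2 ratio -0.24, -0.28 to -0.21). Psmb11, the catalytic subunit of the thymus proteasome, had 0 UMIs in WT and 2 in KO. A count of 0 allows up to 3 UMIs, or 0.0212 CPM in WT, so no ratio was formed.

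The 6 ATPase genes form the unfolding ring and stood on both sides of 0. Psmc6 was at 134.1 CPM in WT and 148.4 CPM in KO (log2 ratio 0.15, 0.12 to 0.18), and Psmc4 at 117.8 and 107.5 CPM (-0.13, -0.17 to -0.10). Psmc1 and Psmc3 had ratios of 0.09, Psmc2 0.04 and Psmc5 -0.05. The ring thus held both the second lowest regulatory ratio and one of the higher ones.

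Among the non-ATPase genes the large base scaffolds were higher in KO. Psmd1 was at 94.1 CPM in WT and 115.4 CPM in KO (log2 ratio 0.29, 0.26 to 0.33), and Psmd2 at 76.8 and 88.1 CPM (0.20, 0.16 to 0.24). In the lid, Psmd11 was at 87.3 and 102.4 CPM (0.23, 0.19 to 0.27), and Psmd14, the enzyme that cuts the ubiquitin chain off, at 97.8 and 107.8 CPM (0.14, 0.10 to 0.18). Psmd8, another lid gene, went the other way with 181.3 and 163.0 CPM (-0.15, -0.18 to -0.13). The ubiquitin receptor gene Psmd4 was at 152.2 and 154.6 CPM, with an interval of -0.01 to 0.05. Of the chaperones of the ATPase ring, Psmd5 was at 37.9 and 44.7 CPM (0.24, 0.18 to 0.30), Psmd9 had a ratio of 0.07, and Psmd10 one of -0.02 with an interval of -0.08 to 0.04.

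The remaining regulatory genes lay between these. Psmd7 had a ratio of 0.13, Psmd3 of 0.07, Psmd6 of 0.06, Psmd12 of 0.03 and Psmd13 of -0.06.

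Summed over genes, core UMIs stood to regulatory UMIs as 1.90 to 1 in WT (95% interval 1.89 to 1.91) and as 1.71 to 1 in KO (1.70 to 1.72). The median cell held 65.7% of its member UMIs in core genes in WT and 63.6% in KO. To see whether this lower ratio belonged to some cells, it was taken in 15 gates, which are ranges of surface tags or marker scores and share cells: 6 by surface tag, 5 by lineage markers, cells in no lineage gate, the S and G2M phase gates and cells in neither. The KO ratio was below the WT ratio in 14 of 15 gates, with intervals apart in those 14. The mast gate, 41 WT and 32 KO cells, was the exception with 1.62 (1.48 to 1.77) in WT and 1.68 (1.51 to 1.85) in KO. Cells were also thinned to 9996 UMIs, which left out the 111 WT and 0 KO cells with fewer. KO was then below WT in 15 of 15 gates, with intervals apart in 11. The mast gate, now 33 WT and 32 KO cells, had 1.60 (1.42 to 1.81) in WT and 1.56 (1.36 to 1.79) in KO. With both libraries given the WT shares of the lineage and cycle gates, the KO ratio over all cells was 1.74. Among cells in neither cycle gate it was below WT in 10 of the 11 gates that could be given, with intervals apart in 5.

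Free RNA did not show the same order. In empty droplets the core to regulatory ratio was 1.66 in WT and 1.98 in KO, from 1476747 and 467260 gene UMIs, and the members held 5650 and 5663 CPM. KO cells had more UMIs than WT cells in every gate, and more of them were in the erythroid gate. The part of depth and make-up in the genotype difference was not tested beyond the thinned and gated values given here.

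**Figure D3:**
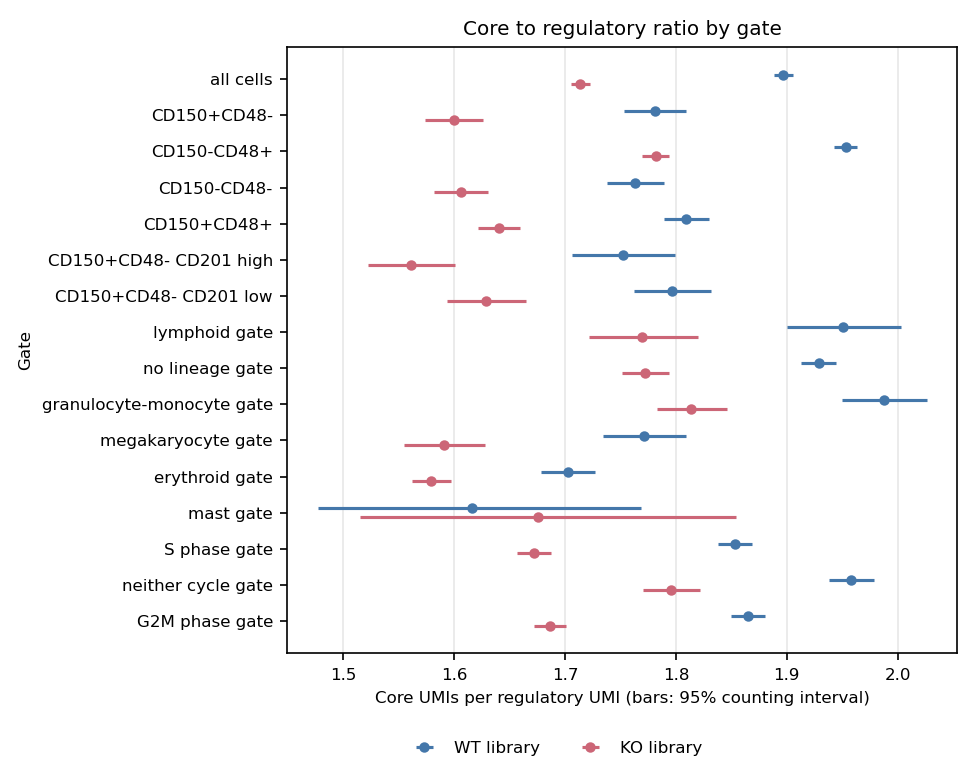
Ratio of core to regulatory UMIs in all cells and in each gate, for WT and KO, with 95% intervals of counting error. KO lies left of WT in each row except the mast gate, where the intervals overlap.

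Across gates the summed level of the members differed more than between genotypes. It was highest in the erythroid gate, 8051 CPM in WT and 7583 CPM in KO, and lowest in the mast gate, 3609 and 2786 CPM. The lymphoid gate held 5050 and 4823 CPM, the granulocyte-monocyte gate 6374 and 6127 CPM and the megakaryocyte gate 5910 and 5990 CPM. Cells in no lineage gate held 5948 and 5519 CPM. The granulocyte-monocyte gate was thus above, and the lymphoid gate below, the cells in no lineage gate in both libraries.

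**Figure D4:**
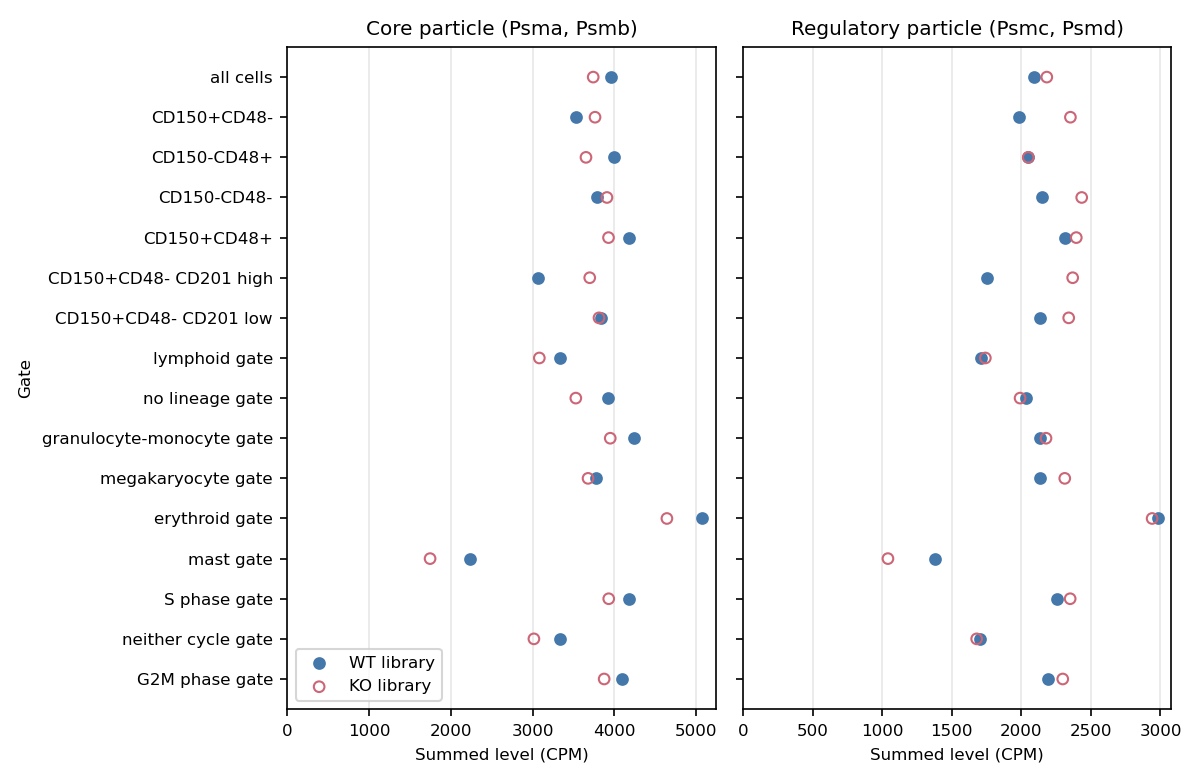
Summed level of core genes and of regulatory genes in each gate, in CPM, for WT and KO. Both groups of genes are highest in the erythroid gate and lowest in the mast gate in both libraries.

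The erythroid gate (175 WT and 225 KO cells) was compared with cells in no lineage gate, in each library apart. In WT 10 core and 18 regulatory genes were at least 25% higher, against 24.1% of all genes, and in KO likewise 10 and 18, against 23.4%. Median log2 ratios were 0.42 (core) and 0.49 (regulatory) in WT and 0.40 and 0.54 in KO, beside -0.14 over all genes in each. Psmd9, the ATPase chaperone, was at 95.5 CPM in the gate and 43.1 CPM outside in WT (log2 ratio 1.15, 1.04 to 1.26), and at 80.3 and 42.6 CPM in KO (0.91). Psmd3 had ratios of 1.02 and 0.97, Psmd7 of 0.88 in both and Psmb3 of 0.81 in WT. At the other end Psmd8 was at 171.2 and 181.9 CPM in WT (-0.09, -0.16 to -0.01) and had -0.06 in KO, and Psmb1 had 0.02 and 0.06. In this gate 33.7% of WT and 45.3% of KO cells were also in the S phase gate, and the median cell held 56779 and 74835 UMIs. Among all kept cells, in the gate or not, 53 in WT and 57 in KO lay within 0.25 standard deviations of the erythroid score limit.

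The mast gate showed the reverse, on few cells. At least 20% lower than in cells of no lineage gate were 15 core and 14 regulatory genes in WT, against 44.1% of all genes, and 15 and 17 in KO, against 50.2%. Medians were -0.83 and -0.63 in WT and -1.11 and -1.06 in KO, beside -0.17 and -0.33 over all genes. Psmd7, a lid gene, was at 70.2 CPM in the gate and 197.4 CPM outside in WT (log2 ratio -1.49, -1.98 to -1.05), and Psmd1 at 35.1 and 92.7 CPM (-1.40, -2.11 to -0.77). Psmd10 was higher in the gate in WT, 59.7 and 37.0 CPM (0.69, 0.15 to 1.18), and level in KO (-0.01, -0.71 to 0.61). Cells of this gate had medians of 11717 UMIs in WT and 16827 in KO, and 2.44% and 0% of them were in the S phase gate. With a lower score limit for the gate the core medians were -0.43 and -0.38.

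In the lymphoid gate (251 WT and 148 KO cells) the members were lower by a smaller amount. Of the WT genes 3 core and 6 regulatory were at least 20% lower, against 20.9% of all genes, and in KO 2 and 4, against 19.7%. These shares are near the background, while the medians of -0.26 and -0.27 in WT and -0.22 and -0.20 in KO stood beside 0.00 and -0.01 over all genes. Psmd7 was at 132.1 CPM in the gate and 197.4 CPM outside in WT (log2 ratio -0.58, -0.70 to -0.47), with -0.47 in KO, and Psma4 had -0.37 and -0.42. Psmc6, Psmb1 and Psma1 had ratios between -0.04 and 0.11 in both libraries. S phase gated cells made up 10.8% of this gate in WT and 12.8% in KO, against 23.1% and 25.97% of cells in no lineage gate. For G2M phase the shares were 14.7% in WT and 29.1% in KO, against 20.7% and 26.6%, so in KO this share was the higher. Among cells in neither cycle gate the medians were -0.15 and -0.20 in WT and -0.12 and -0.12 in KO, and all 4 intervals held 0.

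The granulocyte-monocyte gate had medians of 0.14 (core) and 0.05 (regulatory) in WT and 0.19 and 0.13 in KO. Among cells in neither cycle gate these were 0.002, -0.15, 0.07 and 0.02. Psmb10, the immunoproteasome subunit, was at 147.5 CPM in the gate in WT and 118.5 CPM outside (0.32, 0.22 to 0.41). In the megakaryocyte gate the medians were -0.04 and 0.07 in WT and 0.09 and 0.19 in KO, beside 0.07 and 0.06 over all genes. Among cells in neither cycle gate they were -0.10 and -0.05 in WT and -0.08 and -0.05 in KO, with intervals that held 0. Psmd2 was among the highest members in both libraries, with ratios of 0.27 and 0.46.

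Cells scoring high for cell cycle genes held more member UMIs in CPM than cells in neither gate. The S phase gate held 6429 CPM in WT and 6282 CPM in KO and the G2M phase gate 6285 and 6173 CPM, while cells in neither held 5046 and 4695 CPM. In S phase 8 core and 13 regulatory genes were at least 25% higher than in neither in WT, against 22.2% of all genes, and 11 and 15 in KO, against 23.1%. In G2M phase the counts were 8 and 12 in WT, against 18.6%, and 10 and 15 in KO, against 20.9%. Medians in S phase were 0.33 and 0.43 in WT and 0.39 and 0.51 in KO, beside -0.08 and -0.13 over all genes. Erythroid-gated cells were 5.04% of the WT and 14.8% of the KO S phase gate, and 0.150% and 0.128% of cells in neither. Depth moved with these gates too, from medians of 15756 and 21827 UMIs in neither to 28704 and 41871 in S phase.

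Psmd13, a lid gene, had the highest WT ratio in both cycle gates. It was at 88.7 CPM in S phase, 85.2 CPM in G2M phase and 52.3 CPM in neither (log2 ratios 0.76, 0.68 to 0.84, and 0.70, 0.62 to 0.79), and in KO its ratios were 0.73 and 0.73. Psmb1, a structural core gene, hardly varied with the cycle gates: 336.0 CPM in S phase, 340.0 CPM in G2M phase and 346.5 CPM in neither in WT. Psmd10, which in other settings binds cell cycle regulators, was lower in S phase in WT, 32.1 against 37.5 CPM (-0.22, -0.34 to -0.11). Its ratio in G2M phase was 0.20 in WT and 0.19 in KO.

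Of the surface tags, CD150 and CD48 set apart 4 quadrants, and CD150+CD48- is the one richest in stem cells. In WT the members held 5510 CPM in CD150+CD48- cells (621), 6046 CPM in CD150-CD48+ (3451), 5941 CPM in CD150-CD48- (635) and 6498 CPM in CD150+CD48+ (638). In KO the same quadrants held 6116 CPM (284 cells), 5703 CPM (1674), 6343 CPM (322) and 6323 CPM (396). The order of the low quadrants depended on how cells entered. In cells thinned to the same number of UMIs CD150+CD48- was lowest in both libraries, 5041 CPM in WT and 5262 CPM in KO, with 5240 and 5307 CPM in CD150-CD48-. Without erythroid-gated cells it held 5152 and 4904 CPM and CD150-CD48- 5048 and 5064 CPM, each below the CD48+ quadrants. The median cell spent 0.492% of its UMIs on members in CD150+CD48- and 0.489% in CD150-CD48- in WT, and 0.477% in both in KO. Erythroid-gated cells were 3.86% of CD150+CD48- cells in WT and 19.7% in KO, and 1.10% and 2.27% of CD150-CD48+ cells.

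Against CD150-CD48+ cells, the medians in CD150+CD48- cells were -0.19 (core) and -0.04 (regulatory) in WT and 0.07 and 0.26 in KO, beside 0.14 and 0.08 over all genes. No member was called in WT, where 7.74% of all genes were at least 20% lower and 29.8% at least 25% higher, and 3 regulatory genes were at least 25% higher in KO, against 19.5%. Without erythroid-gated cells the medians were -0.28 and -0.12 in WT and -0.28 and -0.13 in KO, so the libraries then had nearly the same values. Psma7 was at 435.1 CPM in the first quadrant and 536.7 CPM in the other in WT (-0.30, -0.34 to -0.26). Psmb10 was lower in both libraries, at 102.2 and 125.1 CPM in WT (-0.29, -0.38 to -0.21) and at 87.8 and 103.9 CPM in KO (-0.24, -0.35 to -0.14). Psmd9 was at 57.5 and 43.5 CPM in KO (0.40, 0.27 to 0.53), and its ratio was -0.16 without erythroid-gated cells.

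CD201 (the protein C receptor), which is high on stem cells, was used to split the CD150+CD48- cells at their median. CD201-high cells held 4818 CPM in WT and 6068 CPM in KO, and CD201-low cells 5963 and 6152 CPM. In WT 8 core and 8 regulatory genes were at least 20% lower in the high cells than in the low ones, against 15.0% of all genes, with medians of -0.33 and -0.29 beside 0.10. The G2M gate held 4.50% of the CD201-high and 20% of the CD201-low WT cells, with summed G2M markers at 860.0 and 1897 CPM. Among WT cells in neither cycle gate the medians were -0.16 (-0.33 to 0.01) and -0.09 (-0.38 to 0.19), with intervals that held 0. Psmb3 was at 165.8 and 248.0 CPM (log2 ratio -0.58, -0.70 to -0.46), and Psmd6, a lid gene, at 86.8 and 122.2 CPM (-0.49, -0.66 to -0.33). In KO 1 core gene was called lower, against 8.45%, the sparsely counted Psma8 (-0.58, -1.30 to 0.11), and the medians were -0.06 and 0.02. Erythroid-gated cells made up 0.965% of CD201-high cells in WT and 19.7% in KO. Without them the medians were -0.25 and -0.17 in WT and -0.23 and -0.13 in KO.

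The tags were also read singly, the cells with the highest values against as many with the lowest (1782 of each in WT and 892 in KO). Members were lower in Sca1-high cells, with medians of -0.28 (core) and -0.24 (regulatory) in WT and -0.35 and -0.34 in KO, beside 0.13 and 0.12 over all genes. In CD117-high cells they were higher, with 0.20 and 0.18 in WT and 0.27 and 0.27 in KO, beside -0.12 and -0.13. CD34-high cells had -0.03 and -0.19 in WT and -0.17 and -0.32 in KO, so the regulatory genes were the lower of the groups in both. The relative values of Sca1 and CD117 thus went with opposite member levels within the LSK fraction. As a high value of one tag lowers the relative values of the others, these are not independent readings. Depth differed as well: in WT the Sca1-high cells held 37901903 gene UMIs in all and the Sca1-low cells 55721173. In KO they held 26352221 and 42562059. CD117-high and CD117-low cells held 55174534 and 41354121 in WT and 43081502 and 29893782 in KO. The part of depth in these levels was not tested.

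**Figure D5:**
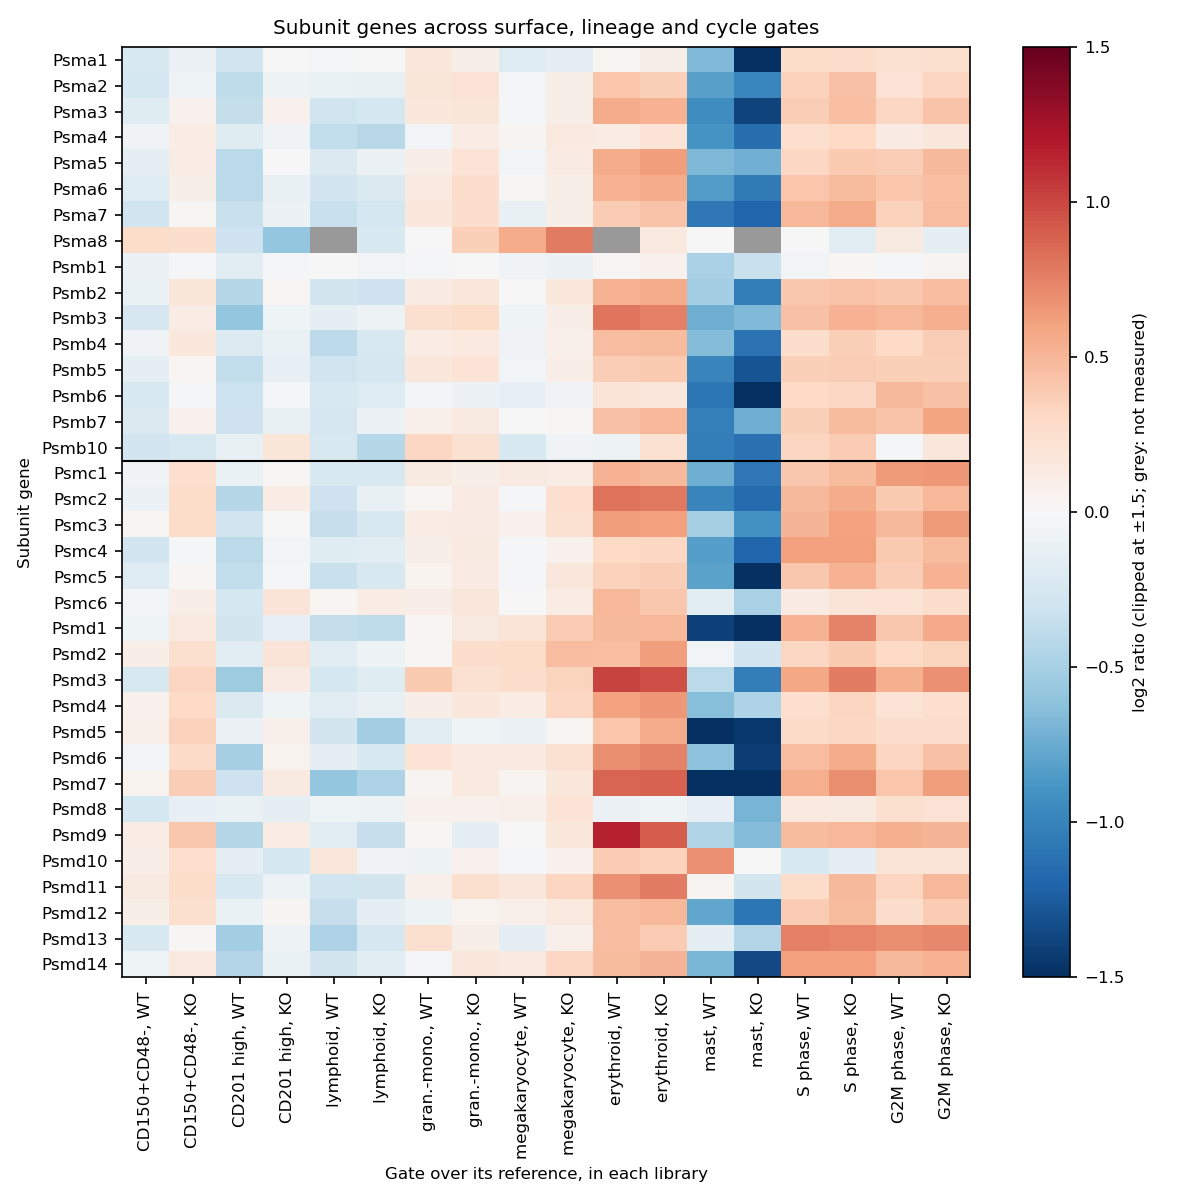
Log2 ratio of each measured member in each gate over its reference gate, in WT and KO side by side; red is higher in the gate and blue lower. The erythroid, S and G2M columns are red for most members and the mast and lymphoid columns blue, with Psmb1, Psma1 and Psmd8 pale in the erythroid columns.

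Within gates, the genotype difference was read member by member. Of the 35 members measured in all 15 gates, 3 were lower in KO in at least 14 gates, against 7.27% of all genes, and 6 were higher in at least 14, against 19.2%. The lower ones were Psmb10, Psmb6 and Psmd8, and the higher ones were the regulatory genes Psmc6, Psmd1, Psmd2, Psmd5, Psmd11 and Psmd14. Over all members both shares are near those of all genes. As the gates share cells, these counts are a description and the gates are not repeats.

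Psmb6 was at 279.6 CPM in WT and 225.2 CPM in KO in CD150-CD48+ cells (log2 ratio -0.31, -0.34 to -0.28), and at 319.7 and 259.4 CPM in the erythroid gate (-0.30, -0.37 to -0.24). In cells of neither cycle gate it was at 220.5 and 182.8 CPM (-0.27, -0.33 to -0.21). CD201-high cells were its exception, at 208.3 and 219.6 CPM (0.08, -0.05 to 0.21), and there it had -0.17 (-0.34 to -0.004) without erythroid-gated cells. Psmb10 was at 100.1 and 70.8 CPM in the lymphoid gate (-0.50, -0.71 to -0.29), its lowest ratio, and nearly equal in the erythroid gate, 112.1 and 111.9 CPM.

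Psmd1 was higher in KO in gates that differ in lineage and cycle. It was at 130.2 CPM in WT and 151.9 CPM in KO in the erythroid gate (log2 ratio 0.22, 0.13 to 0.32), at 106.1 and 140.2 CPM in the megakaryocyte gate (0.40, 0.25 to 0.56), and at 73.6 and 80.4 CPM in neither cycle gate (0.13, 0.03 to 0.22). In CD150+CD48- cells it was at 88.3 and 120.4 CPM (0.45, 0.33 to 0.57), and its ratio there was 0.12 (-0.04 to 0.28) without erythroid-gated cells. Psmd11 was higher in KO in S phase, 90.3 and 109.8 CPM (0.28, 0.21 to 0.35), while in neither cycle gate it was at 74.6 and 78.2 CPM with an interval of -0.03 to 0.16.

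The genotype medians differed between the surface quadrants. In CD150-CD48+ cells, the largest quadrant, the medians of KO over WT were -0.11 (core) and 0.00 (regulatory), beside 0.08 over all genes. In CD150+CD48- cells they were 0.10 and 0.29, beside -0.01, and in CD201-high cells 0.27 and 0.49, beside -0.05. In CD201-high cells 7 core and 15 regulatory genes were at least 25% higher in KO, against 22.5% of all genes. Without erythroid-gated cells the medians in CD201-high cells (308 WT and 114 KO cells) were -0.07 and 0.01, and in CD150+CD48- cells -0.13 and 0.01. In the erythroid gate itself they were -0.11 and -0.02, beside 0.09, and in cells of no lineage gate -0.13 and -0.03, beside 0.09. The core median was thus below the regulatory median in each of these gates, with or without erythroid-gated cells.

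Genes that work with the proteasome were read from 8 fixed lists of 43 genes, of which 42 were measured. At least 25% higher in KO were 6 genes and at least 20% lower were 2, against 7.47% and 2.57% of all genes, and the median log2 ratio was 0.13. The 2 lower genes were the catalytic immunoproteasome genes Psmb8, at 280.5 CPM in WT and 203.9 CPM in KO (-0.46, -0.48 to -0.44), and Psmb9, at 91.9 and 69.6 CPM (-0.40, -0.44 to -0.36). Both were lower in 15 of 15 gates. Psme1 and Psme2, which form an activator cap induced together with them by interferon, had ratios of -0.23 and -0.19. The alternative caps Psme3 and Psme4 had 0.22 and 0.20 and the inhibitor Psmf1 0.13.

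Of the core assembly chaperones, Pomp was at 330.7 CPM in WT and 306.4 CPM in KO (-0.11, -0.13 to -0.09), Psmg1, Psmg3 and Psmg4 had ratios between -0.11 and -0.08, and Psmg2 had 0.16. None of the 5 was called. Among enzymes bound to the regulatory particle, the deubiquitinase gene Uchl5 was at 125.1 and 168.7 CPM (0.43, 0.40 to 0.46) and was called higher. Usp14, another deubiquitinase gene, was at 89.3 and 104.6 CPM (0.23, 0.19 to 0.27). The small subunit gene Sem1 was at 621.0 and 602.1 CPM (-0.04).

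Of 7 measured genes for transcriptional control all had ratios above 0, as did 65.0% of all genes, and 2 were called higher. Nfe2l2, the oxidative stress factor, was at 42.9 CPM in WT and 54.6 CPM in KO (0.35, 0.30 to 0.40), and its partner Mafk at 8.70 and 11.7 CPM (0.42, 0.31 to 0.54). Nfe2l1, the factor best known for the proteasome genes, was at 32.8 and 35.7 CPM (0.12, 0.06 to 0.19), and Ddi2, the protease that activates it, at 20.9 and 25.4 CPM (0.28, 0.21 to 0.36). The 8 shuttle and unfoldase genes were above 0 as well, beside the same 65.0% of all genes, among them Ubqln4 (0.35, called higher) and Vcp (0.16). The nuclear import genes Akirin2 and Zfand5 stood at 0.01.

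Of the ubiquitin genes themselves, Ubb was at 1686 CPM in WT and 1554 CPM in KO (log2 ratio -0.12, -0.13 to -0.11). Ubiquitin genes have near-identical copies, and how reads shared with a copy were counted is not given in the sources used here.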

How the data were processed

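As deposited, both matrices hold unnormalized UMI counts of genes and antibody tags per barcode. Per the file headers they come from Cell Ranger. The submitters' processing notes give its version as 4.0.6 and the build as mm10, and also name Seurat and DESeq without a role. No barcode had been filtered. Each matrix gave 32285 genes and 6 antibodies over 2395014 (WT) and 2456731 (KO) barcodes.

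Cells were barcodes with at least 8178 (WT) or 9992 (KO) gene UMIs, a limit set at 10% of a high-ranking barcode's total (percentile 99 among the 6000 largest). They also had 500 genes or more and no more than 10% of UMIs from mitochondrial genes. Scrublet marked 0 WT and 8 KO cells as doublets and so did not work as a caller, and doublets were kept. UMIs were summed over cells and given per 1000000 gene UMIs (CPM). Ratios carry exact conditional binomial 95% intervals of the pair of Poisson counts. The intervals were run on simulated Poisson counts, which hold no variation between cells, embryos or libraries, so this checked the calculation only. Genes of 5 CPM or more on average were measured. The surface cuts were set per library by a mixture of 2 normal distributions on centred log ratios of the tags. A lineage gate held cells whose mean z-scored marker level was above the 95th percentile of both libraries together (mast 99th), with cells under the 80th percentile of all lists as the reference. A cycle gate held cells above the 75th percentile, with cells under the 50th as the reference. CD201 was split at the median of CD150+CD48- cells.

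All members are accounted for. Named with values were the catalytic genes Psmb5, Psmb6 and Psmb7, the variants Psmb10, Psmb11 and Psma8, and up to 6 highest and 6 lowest members of a comparison by the interval bound nearest to 0. Other members were named in passing. Some genes of the lists around the proteasome are counted but not reported singly here. The members, lists and alternatives were chosen with earlier results of these data known. Coordinates and promoters are from RefSeq on GRCm38.p6. Python 3.11.15, numpy 2.4.6, scipy 1.17.1 and scanpy 1.11.5 were used. Alternatives in scaling, filters, gates, depth, doublets and free RNA were run.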

Additional observations from a re-analysis of the deposited data

Results flagged for a closer look

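Of the members, 3 passed the calling folds in opposite directions in KO over WT in a pair of gates, with intervals on opposite sides of 0. These differences between gates were not tested. Other members had intervals on opposite sides of 0 without passing both folds, such as Psma7, with 9 gates below and 4 above. Psma3, an alpha ring gene, had a log2 ratio of 0.44 in CD201-high CD150+CD48- cells (315.4 CPM in KO and 232.6 CPM in WT) and of -0.53 in the mast gate, from 64 KO and 89 WT UMIs. Psmb2, a structural beta ring gene, had 0.36 and -0.78. Psmd6, a lid gene, had 0.66 and -0.85, the latter from 23 KO and 40 WT UMIs. Without erythroid-gated cells, which made up 19.7% of KO and 0.965% of WT CD201-high cells, the ratios in CD201-high cells were 0.002 for Psma3, -0.09 for Psmb2 and 0.25 for Psmd6.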

How the results depend on the processing

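Of 314 alternative values for group medians, counts and core to regulatory ratios, 230 were taken as unchanged, 83 as moved and 1 changed sign after being called. For single members and subcomplex medians the numbers were 551, 199 and 3 of 753. Unchanged values lay within the interval of the first value, for a median the medians of the members' bounds. Counts have no interval and were compared with the first count directly. The causes were not tested unless the alternative itself shows them.

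Over all cells, the median of KO over WT was -0.069 (all members), -0.14 (core) and 0.0041 (regulatory) with median-of-ratios scaling, -0.072, -0.12 and -0.037 with the WT shares of the gates, and -0.039 (all members) and -0.10 (core) in thinned cells. The count of members called higher went from 0 to 1 with a mitochondrial limit of 5%, without the highest doublet scores, with the empty profile subtracted at an assumed 10% of each cell's UMIs and in thinned cells (it stayed 0 with the empty droplets as measured subtracted), and the count called lower went from 0 to 1 with median-of-ratios scaling and in thinned cells. The core to regulatory ratio in WT and KO was 1.95 and 1.77 without Psmb10, Psmb11, Psma8, Psmd5, Psmd9 and Psmd10, 1.92 and 1.74 in thinned cells, 1.92 and 1.69 with the empty profile subtracted at the assumed 10%, 2.58 and 2.14 as a ratio of median CPM, and 1.74 in KO with the WT shares of the gates.

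For CD150+CD48- over CD150-CD48+ cells, core and regulatory medians were -0.29 and -0.14 (WT) and -0.060 and 0.13 (KO) with the log of the tag count, -0.079 and 0.13 (WT) with the highest and lowest 30% of each tag, -0.067 and 0.065 (KO) in thinned cells, -0.13 and -0.057 (KO) among cells in neither cycle gate, and -0.28 and -0.12 (WT) and -0.28 and -0.13 (KO) without erythroid-gated cells. There, in KO, Psmd9 had -0.22 in neither cycle gate and -0.16 without erythroid-gated cells, and Psmd7 had -0.015 without them. For CD201-high over CD201-low cells in neither cycle gate the medians were -0.16 and -0.087 in WT and the core median was -0.19 in KO; without erythroid-gated cells the KO core median was -0.23.

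With a lower score limit the erythroid medians were 0.27 and 0.35 in WT and 0.33 (core) in KO, and the mast medians -0.43 (core) in WT and -0.38 and -0.39 in KO. Median-of-ratios scaling gave erythroid medians of 0.56 and 0.64 (WT) and 0.55 and 0.68 (KO), S phase medians of 0.41 and 0.51 (WT) and 0.52 and 0.64 (KO) and a KO G2M core median of 0.49. In thinned cells the G2M regulatory medians were 0.30 (WT) and 0.37 (KO). Among cells in neither cycle gate the lymphoid core median was -0.15 in WT, the granulocyte-monocyte medians 0.0019 and -0.15 (WT) and 0.074 and 0.015 (KO), and the megakaryocyte medians -0.054 (regulatory, WT) and -0.079 and -0.050 (KO).

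For KO over WT within gates, cells in neither cycle gate gave core and regulatory medians of -0.11 and -0.062 in CD150+CD48-, -0.14 and 0.0039 in CD150-CD48-, and -0.099 and -0.049 in CD201-high cells, and core medians of -0.15 in CD150-CD48+, -0.11 in CD201-low and 0.073 in granulocyte-monocyte cells. Without erythroid-gated cells they were -0.13 and 0.0058 in CD150+CD48- and -0.068 and 0.014 in CD201-high cells, with core medians of -0.035 in CD150-CD48- and -0.14 in CD201-low cells. Thinning gave 0.095 and 0.22 in CD201-high cells and a core median of -0.026 in CD150-CD48- cells. The erythroid comparison was not run among cells in neither cycle gate, since too few erythroid-gated cells were there. No paired analysis was possible because each genotype is 1 library. Depth limits the mast gate most, with 569711 WT and 591443 KO gene UMIs.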
